A study of Mus musculus with 17 samples.

Results

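The genes that encode RANKL, TNF, the lymphotoxins and LIGHT, together with their receptors and a decoy receptor, were followed across 5 sorted cell groups of the NOD mouse. The 10 genes were chosen by name, with earlier results of these data known. The ligands were Tnfsf11 (RANKL), Tnf, Lta, Ltb and Tnfsf14 (LIGHT). The receptors were Tnfrsf11a (RANK), Tnfrsf1a (TNFR1), Tnfrsf1b (TNFR2) and Ltbr, and the soluble decoy was Tnfrsf11b (osteoprotegerin). All 10 were measured, among 17097 genes in all. Each gene was represented by 1 probe set, a group of short probes on the array, selected on the highest mean level over all 17 arrays among the probe sets that name exactly 1 gene. This choice used the level but no difference between groups. Of the 10 genes 5 had a second, dimmer probe set. The chosen and the other probe set were closest for Tnfsf14, with means of 5.14 and 4.89, and farthest apart for Tnfrsf11b, with 3.84 and 1.22.

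NOD mice are a strain in which lymphocytes infiltrate the lacrimal gland, and males serve in research on Sjögren's syndrome. All samples came from male NOD mice with no treatment named. From lacrimal glands at 16 weeks of age, 4 arrays of B cells, 4 of CD4 T cells and 3 of epithelial cells were made, and from the spleen 3 arrays of B cells and 3 of CD4 T cells. The spleen cells served as a steady-state control, and their donors are given as 16 weeks old in the sample labels but as 4 weeks old in the text on the series' design, so a gland against spleen difference may also be one of age. Live cells were sorted by flow cytometry: B cells as B220+CD3- and CD4 T cells as CD3+CD4+B220-, both CD45+ and negative for NKp46, CD11b and CD11c, and epithelial cells as CD45-CD326+. Glands were dissociated mechanically and with enzymes, while the labels name no dissociation step for spleens. Whether replicates came from separate or pooled mice is not stated, so p-values reflect only how far these samples spread, which may be technical.

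RANKL, a ligand of activated T cells and of stromal cells, binds RANK, and osteoprotegerin is secreted and captures RANKL before it can do so. TNF binds TNFR1, which most tissues carry, and TNFR2, which is mostly found on leukocytes and endothelium. Lymphotoxin alpha, the Lta product, is secreted as a homotrimer that binds the TNF receptors, or joins lymphotoxin beta, the Ltb product, in a membrane complex that binds the lymphotoxin beta receptor on stromal and epithelial cells, a signal known for organising lymphoid tissue. LIGHT binds the same receptor and HVEM, the Tnfrsf14 product. All these receptors lead to NF-kB, either through the classical kinases or, for RANK and the lymphotoxin beta receptor, also through NIK and the Nfkb2 product.

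The genes for both lymphotoxins and for TNF lie next to each other on chromosome 17 in the order Ltb, Tnf, Lta, and the genes for the lymphotoxin beta receptor and TNFR1 lie on chromosome 6 on either side of Scnn1a. The 250 bases before the start of the 4 ligands on which the results turn are shown here, because 3 of them sit side by side and yet 2, Lta and Ltb, varied together across the arrays while Tnf had another pattern. They were taken from RefSeq (GRCm38.p6) and are written 5′ to 3′ on the gene's strand: chr14:78308044-78308293 on the minus strand for Tnfsf11, chr17:35202008-35202257 on the minus strand for Tnf, chr17:35205352-35205601 on the minus strand for Lta, and chr17:35194257-35194506 on the plus strand for Ltb. Capitals mark a match to the NF-kB consensus, searched on both strands.
Tnfsf11: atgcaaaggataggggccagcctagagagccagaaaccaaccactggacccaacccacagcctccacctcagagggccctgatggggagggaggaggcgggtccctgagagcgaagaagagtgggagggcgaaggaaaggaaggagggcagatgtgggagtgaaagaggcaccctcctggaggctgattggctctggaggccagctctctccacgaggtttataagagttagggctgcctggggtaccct
Tnf: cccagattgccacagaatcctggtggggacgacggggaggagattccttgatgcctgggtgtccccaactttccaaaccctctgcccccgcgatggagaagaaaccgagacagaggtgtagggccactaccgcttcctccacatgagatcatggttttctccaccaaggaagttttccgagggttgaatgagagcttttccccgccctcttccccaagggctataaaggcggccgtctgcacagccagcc
Lta: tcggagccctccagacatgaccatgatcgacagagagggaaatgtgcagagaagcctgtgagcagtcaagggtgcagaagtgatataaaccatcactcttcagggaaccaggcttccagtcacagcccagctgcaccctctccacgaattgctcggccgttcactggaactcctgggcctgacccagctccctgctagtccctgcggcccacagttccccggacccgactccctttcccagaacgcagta
Ltb: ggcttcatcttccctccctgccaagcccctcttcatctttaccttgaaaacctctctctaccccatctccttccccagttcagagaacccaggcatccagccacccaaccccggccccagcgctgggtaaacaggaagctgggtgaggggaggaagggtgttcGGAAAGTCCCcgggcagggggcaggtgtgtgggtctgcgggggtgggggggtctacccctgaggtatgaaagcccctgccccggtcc
The Ltb window held 1 match, GGAAAGTCCC, which is the consensus read on the opposite strand and begins 87 bases before the start. The windows of Tnf, Lta and Tnfsf11 held no match. The AP-1 consensus TGANTCA, also searched on both strands, was in none of these 4 windows and was in that of Tnfsf14, as TGAGTCA, 160 bases before the start. Of 32851 promoter windows of this length 7.25% held the NF-kB consensus and 6.75% the AP-1 consensus. Of the 10 genes 9 had an entry in the promoter table, and none of the other receptors' windows held either motif.

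Values are log2 expression, so a difference of 1 is a 2-fold change. They carry no detection calls, and the median of all values, 4.71, is given as a guide to dim signals: 31.9% of genes had every group mean below it, among them Tnfrsf11a and Tnfrsf11b. A fold against such a level compares deposited values, and the lower one is not known to exceed background. Array medians lay between 4.695 and 4.754, and arrays of a group correlated at 0.977 to 0.996. A gene is called higher or lower below where the groups differed at least 2-fold and limma's fit of all 17 arrays gave an adjusted p under 0.05 (Benjamini-Hochberg, over the 17097 genes). Arrays of the groups compared did not overlap for 30.5% to 60.5% of all genes, depending on the comparison, so the lack of overlap given for single genes below is by itself common.

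B cell and CD4 T cell markers followed the sort in the lymphocyte groups, and 3 arrays stood apart: epithelial replicate 1, spleen B cell replicate 3 and, in genes described below, gland B cell replicate 3. The B cell list (5 of 6 genes measured) had a mean level of 9.82 to 10.11 in B cell arrays and 4.49 to 5.21 in CD4 T cell arrays, and the CD4 T cell list (6 of 6) had 9.90 to 10.12 in CD4 T cell arrays and 4.22 to 4.82 in B cell arrays. In spleen B cell replicate 3 the neutrophil list (4 of 5) was at 6.70 against 3.64 and 3.42 in the other two, and no call among the 10 genes changed when it was left out. Epithelial replicate 1 carried leukocyte signal: Ptprc, which encodes the CD45 that the sort excluded, was 9.62 there and 2.42 and 2.36 in the other two, and the pan-leukocyte list (5 of 5) was at 9.43 against 4.19 and 4.15. In that array the natural killer and innate lymphoid list (5 of 8) was at 6.88 against 3.92 and 3.82, the myeloid list (10 of 10) at 6.17 against 4.24 and 4.53, the CD4 T cell list at 5.27 against 3.66 and 3.49, and the B cell list at 4.66 against 3.78 and 3.80. All 3 epithelial arrays, with the epithelium list (8 of 8) at 8.98 to 9.53, also had the endothelial (7 of 7) list at 8.07 to 8.59, the fibroblast list (7 of 7) at 5.88 to 6.39 and the myoepithelial list (5 of 6) at 8.26 to 8.59, where the highest lymphocyte arrays had 4.32, 3.55 and 4.63. The group is therefore called the epithelial sort. Gland lymphocytes carried the epithelium list at 5.52 to 6.05 and the lacrimal secretory list (6 of 7) at 8.45 to 9.37, against 3.83 to 3.94 and 3.84 to 6.09 in spleen lymphocytes. All gland B cell arrays had more of some other lists than spleen B cell arrays. The plasmacytoid dendritic cell list (3 of 5) was at 8.42 to 9.42 against 8.00 to 8.23. The CD8 T cell list (2 of 2) was at 4.94 to 5.88 against 4.35 to 4.56. The fibroblast list was at 3.41 to 3.55 against 3.29 to 3.37 and the myoepithelial list at 4.26 to 4.63 against 4.13 to 4.25. All gland CD4 T cell arrays had more of the myeloid list than spleen CD4 T cell arrays, at 4.57 to 4.70 against 3.55 to 4.21. The natural killer and innate lymphoid list was at 4.21 to 4.43 against 4.01 to 4.15 there. In CD4 T cells the endothelial and CD8 T cell lists were lower in the gland. The part of these in the differences below was not tested.

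Tnfsf11 was a CD4 T cell transcript and was higher in the gland. Its log2 level was 8.75, 9.02, 8.83 and 8.82 in the 4 gland CD4 T cell arrays (mean 8.86 ± 0.12 SD) and 6.01, 7.04 and 6.72 in the 3 spleen CD4 T cell arrays (6.59 ± 0.53). Every gland array was above every spleen array. The difference was 2.26 (SE 0.19, 4.80-fold, adjusted p = 2.44e-07). B cells were far below, at 1.93, 1.91, 2.16 and 2.05 in the gland and 2.15, 2.15 and 2.48 in the spleen, and the epithelial sort was at 2.01, 1.49 and 1.68. These last 3 groups lay well below the median of all values, and neighbours in this order, spleen B cells above gland B cells above the epithelial sort, differed by less than the test could separate: the gland minus spleen difference in B cells was -0.25 (95% interval -0.65 to 0.16, adjusted p = 0.433) and that of epithelium minus gland B cells -0.29 (-0.69 to 0.11, adjusted p = 0.190). Between the lymphocytes, Tnfsf11 was 115-fold higher in CD4 T cells than in B cells of the gland (log2 difference 6.84, SE 0.17, adjusted p = 7.27e-14) and 20.1-fold higher in the spleen (4.33, SE 0.20, adjusted p = 8.49e-11). The change from spleen to gland in CD4 T cells exceeded that in B cells by 2.51 (SE 0.27, adjusted p = 1.00e-05).

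The second Tnfsf11 probe set was dimmer and gave smaller differences of the same sign within CD4 T cells. It read 3.82, 3.75, 3.66 and 3.87 in gland and 2.61, 3.32 and 3.04 in spleen CD4 T cells, again without overlap. The difference was 0.79 (adjusted p = 4.63e-04 over all probe sets), under the 2-fold minimum. In the spleen it did not separate CD4 T cells from B cells (0.06, adjusted p = 0.863), where the brighter probe set gave 20.1-fold. In the gland it gave 1.99-fold, just short of being called, where the brighter one gave 115-fold.

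The RANK gene and the decoy gene were dim in every group. Tnfrsf11a had group means between 2.99 ± 0.07 in gland CD4 T cells and 3.44 ± 0.33 in the epithelial sort, a span of 0.45. The epithelial arrays read 3.30, 3.82 and 3.20, and the gland CD4 T cell arrays 2.98, 2.88, 3.02 and 3.06. All epithelial arrays were above all gland CD4 T cell arrays, by 0.45 on average (SE 0.14, adjusted p = 0.0123), which is a 1.37-fold difference and so was not called. Against gland B cells, at 2.96 to 3.43, the difference was 0.25 (adjusted p = 0.133) and the arrays overlapped. Its second probe set read 3.32, 3.24 and 2.61 in the epithelial sort and 2.14 to 2.60 in the lymphocyte arrays, a difference of 0.64 from gland B cells (adjusted p = 6.85e-04) and 0.80 from gland CD4 T cells (adjusted p = 9.67e-05), neither reaching 2-fold.

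For Tnfrsf11b the 2 probe sets differed. The chosen probe set had group means from 3.74 to 3.96 and was called in no comparison. Its arrays in the epithelial sort, at 3.528 to 3.847, were just below those of gland B cells, at 3.851 to 4.121 (difference -0.22, adjusted p = 0.108), as were those of gland CD4 T cells (-0.20, adjusted p = 0.199), and epithelium minus gland CD4 T cells was -0.03 (adjusted p = 0.869). The dimmer probe set read 1.92, 2.53 and 3.08 in the epithelial sort and 0.76 to 1.14 in the lymphocyte arrays. In a fit over all probe sets that name 1 gene it was 3.15-fold higher in the epithelial sort than in gland B cells (log2 difference 1.65, adjusted p = 5.06e-07; 26.4% of all those probe sets were called) and 2.93-fold higher than in gland CD4 T cells (1.55, adjusted p = 1.19e-06; 24.8% called). All these values lay below the median of all values. Lgr4, an R-spondin receptor that also binds RANKL, was called higher in the epithelial sort, at 8.84 ± 0.11 (n = 3) against 4.40 ± 0.24 (n = 4) in gland B cells, 21.6-fold (adjusted p = 3.43e-11).

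**Figure D1:**
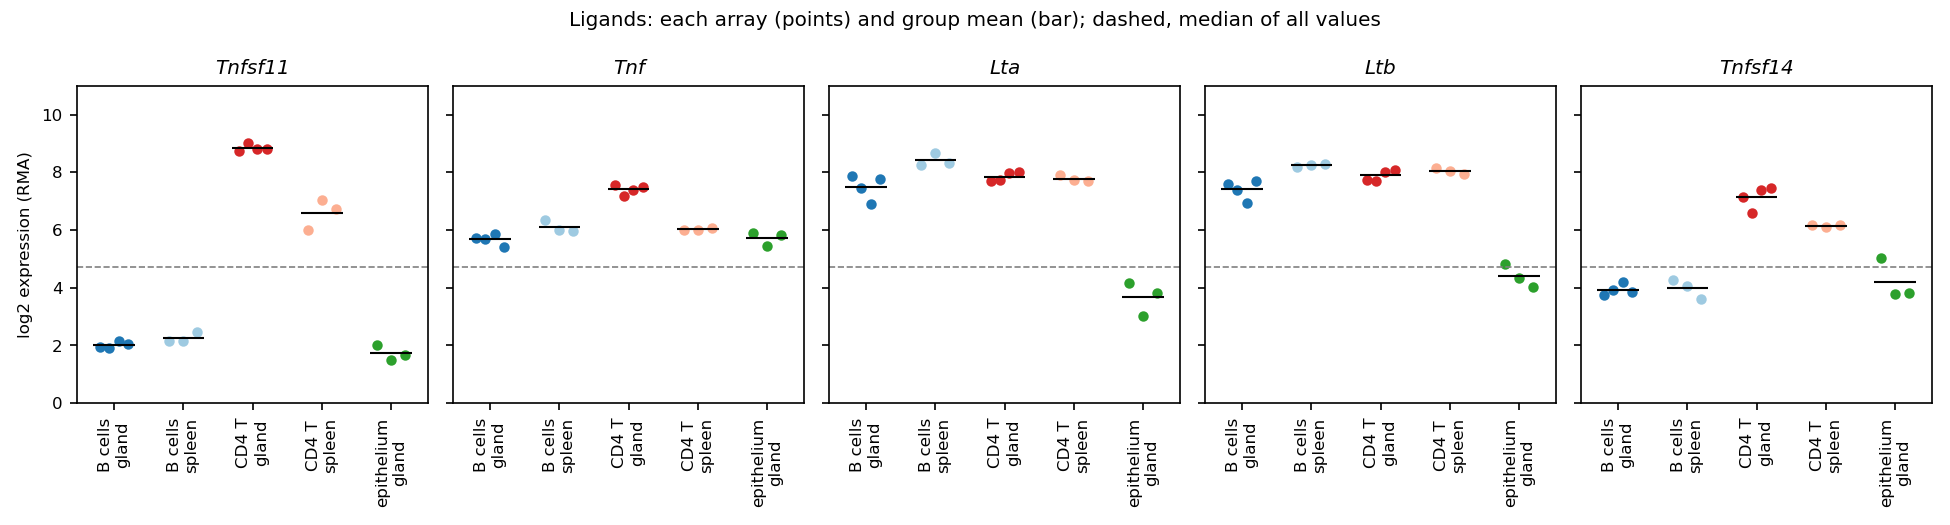
Log2 expression (vertical axis) of the 5 ligands in each array, by sorted group (horizontal axis); points are arrays, bars are group means and the dashed line is the median of all values, 4.71. Tnfsf11 is above that line only in the 7 CD4 T cell arrays, Lta and Ltb are above it in every lymphocyte array, and Tnf is highest in the 4 gland CD4 T cell arrays.

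Tnf had its highest level in gland CD4 T cells, and the other 4 groups lay close together. The gland CD4 T cell arrays read 7.55, 7.20, 7.40 and 7.49 (7.41 ± 0.15) and the spleen CD4 T cell arrays 5.99, 6.005 and 6.085 (6.03 ± 0.05), with no overlap. Tnf rose 2.61-fold (log2 difference 1.38, SE 0.14, adjusted p = 1.48e-06). In B cells the direction was the opposite, with 5.73, 5.68, 5.88 and 5.42 in gland and 6.37, 5.99 and 5.97 in spleen arrays. All gland B cell arrays were below all spleen B cell arrays, by 0.43 (SE 0.14, 1.35-fold, adjusted p = 0.0373), too small a fold to be called. The difference between both changes was 1.82 (SE 0.19, adjusted p = 9.44e-06). CD4 T cells exceeded B cells 3.32-fold in the gland (adjusted p = 1.57e-08) but not in the spleen, where the difference was -0.08 (95% interval -0.39 to 0.22, adjusted p = 0.789). The epithelial sort, at 5.91, 5.45 and 5.84, overlapped gland B cells (difference 0.06, 95% interval -0.23 to 0.34).

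Of the TNF receptors, Tnfrsf1a was highest in the epithelial sort. It read 8.59, 9.11 and 8.52 there, 6.89, 7.40, 7.05 and 7.08 in gland CD4 T cells, 7.49, 7.35 and 7.44 in spleen CD4 T cells, 5.22, 5.29, 4.53 and 4.78 in gland B cells, and lastly 4.70, 4.90 and 4.96 in B cells of the spleen. The epithelial, CD4 T cell and B cell arrays formed 3 levels without overlap. The epithelial sort was 13.7-fold above gland B cells (log2 difference 3.78, SE 0.18, adjusted p = 3.29e-11) and 3.10-fold above gland CD4 T cells (1.63, SE 0.18, adjusted p = 9.34e-07). CD4 T cells were 4.43-fold above B cells in the gland (adjusted p = 3.95e-08) and 5.93-fold in the spleen (adjusted p = 3.28e-08). Within a subset, gland and spleen did not separate: 0.10 in B cells (adjusted p = 0.772) and -0.32 in CD4 T cells (95% interval -0.71 to 0.07, adjusted p = 0.247).

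Tnfrsf1b had the other pattern, with its highest mean in gland CD4 T cells and its lowest in the epithelial sort, whose arrays overlapped those of spleen B cells. Its level was 9.26, 9.47, 9.20 and 9.28 in gland and 6.83, 6.75 and 6.95 in spleen CD4 T cells, and it rose 5.52-fold (log2 difference 2.46, SE 0.35, adjusted p = 8.14e-05). B cells of the gland read 6.93, 6.70, 8.50 and 6.83, those of the spleen 5.62, 6.16 and 6.36. It rose there too, 2.28-fold (1.19, SE 0.35, adjusted p = 0.0294), but replicate 3 of the gland B cells stood far above the rest, and without it the difference was 0.77 (adjusted p = 0.0348), under 2-fold. That call was also lost without spleen B cell replicate 1 (0.98, adjusted p = 0.131) and without spleen replicate 2 (1.25, adjusted p = 0.0673), although every gland B cell array was above every spleen B cell array. The same gland B cell array had the lowest Lta and Ltb of its group, the lowest plasmacytoid dendritic cell list (3 of 5 genes measured; 8.42 against 8.89 to 9.42) and the lowest myeloid list (4.50 against 4.82 to 5.10); the part of these in the Tnfrsf1b value was not tested. The difference between the CD4 T cell and B cell changes was 1.27 (adjusted p = 0.137), and without that array 1.69 (adjusted p = 0.00235).

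The second Tnfrsf1b probe set kept the CD4 T cell direction at a smaller size. It read 5.81, 5.83, 5.50 and 5.86 in gland and 5.29, 5.32 and 5.18 in spleen CD4 T cells, a difference of 0.49 (adjusted p = 0.00468). In B cells its difference was 0.18 (adjusted p = 0.347). In the epithelial sort the chosen probe set read 6.38, 5.26 and 5.57, with the array that carried leukocyte signal the highest, and was 11.8-fold below gland CD4 T cells (-3.57, adjusted p = 2.53e-07) and 2.83-fold below gland B cells (-1.50, adjusted p = 0.00161). Without that array the differences were -3.89 and -1.82. The second probe set gave smaller differences, -0.76 (1.70-fold) from gland CD4 T cells and -0.48 (1.40-fold) from gland B cells, neither called.

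**Figure D2:**
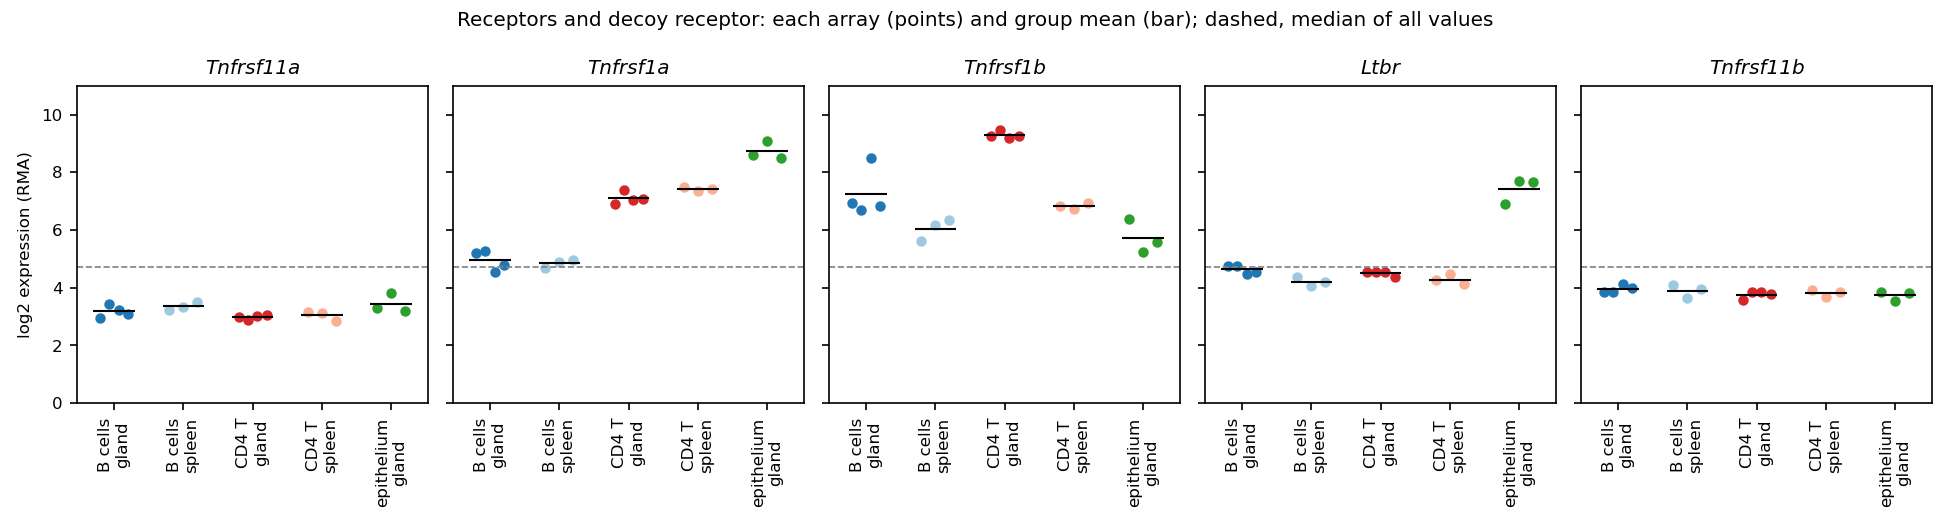
Log2 expression (vertical axis) of the 4 receptors and the decoy receptor Tnfrsf11b in each array, by sorted group (horizontal axis); points are arrays, bars are group means and the dashed line is the median of all values, 4.71. Tnfrsf1a and Ltbr are highest in the 3 epithelial arrays, Tnfrsf1b in the 4 gland CD4 T cell arrays, and Tnfrsf11a and Tnfrsf11b stay below the line in every array.

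Lta and Ltb were high in both lymphocyte types and low in the epithelial sort. Lta read 7.88, 7.47, 6.91 and 7.79 in gland B cells, 8.26, 8.69 and 8.34 in B cells of the spleen, 7.70, 7.72, 7.99 and 8.01 in gland CD4 T cells, 7.92, 7.74 and 7.69 in spleen CD4 T cells and 4.17, 3.04 and 3.81 in the epithelial sort. Only the epithelial arrays lay below the median of all values. Ltb read 7.62, 7.40, 6.94 and 7.69, then 8.18, 8.27 and 8.31, then 7.75, 7.72, 8.03 and 8.08, then 8.16, 8.06 and 7.96, and then 4.83, 4.35 and 4.01 in the same order of groups. For both genes spleen B cells had the highest mean and gland B cells the lowest of the lymphocyte groups, and the CD4 T cell groups between them overlapped. Across the 17 arrays the pair correlated at r = 0.986, a description that rests largely on the gap between lymphocyte and epithelial arrays.

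B cells of the gland had less of both lymphotoxin transcripts than those of the spleen, by less than 2-fold. Every gland B cell array was below every spleen B cell array for both genes. The difference was -0.92 for Lta (SE 0.24, 1.89-fold, adjusted p = 0.0154) and -0.84 for Ltb (SE 0.18, 1.79-fold, adjusted p = 0.00475), so neither was called. Lta lay close enough to the 2-fold limit to pass it when 1 array was left out: it was called at -1.04 without gland B cell replicate 1, at -1.01 without replicate 4 and at -1.0015 without spleen B cell replicate 1. In CD4 T cells Lta differed by 0.07 (95% interval -0.45 to 0.59) and Ltb by -0.16 (-0.56 to 0.23). The difference between the subsets' changes was 0.99 for Lta (adjusted p = 0.0883) and 0.68 for Ltb (adjusted p = 0.128). Between lymphocytes of the gland the Ltb difference was 0.48 in favour of CD4 T cells (adjusted p = 0.0426, 1.40-fold) and that of Lta 0.34 (adjusted p = 0.285).

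Against both gland lymphocyte groups the epithelial sort had little lymphotoxin transcript and more of the receptor's. Lta was 14.3-fold lower than in gland B cells (-3.84, adjusted p = 9.52e-10) and 18.2-fold lower than in gland CD4 T cells (-4.19, adjusted p = 3.73e-10), and Ltb 8.10-fold (-3.02, adjusted p = 6.29e-10) and 11.3-fold lower (-3.50, adjusted p = 1.16e-10). The array with leukocyte signal had the highest Lta and Ltb of the 3, and without it the Lta difference from gland B cells was -4.09 and that of Ltb -3.23. Ltbr read 6.91, 7.69 and 7.68 in the epithelial sort, 4.76, 4.76, 4.47 and 4.55 in gland B cells, 4.38, 4.07 and 4.20 in B cells of the spleen, 4.55, 4.55, 4.55 and 4.36 in gland CD4 T cells and 4.28, 4.47 and 4.12 in spleen CD4 T cells. The lowest epithelial value was that of the array with leukocyte signal and was still above every lymphocyte value. Ltbr was 6.92-fold higher than in gland B cells (2.79, SE 0.16, adjusted p = 2.89e-10) and 7.58-fold higher than in gland CD4 T cells (2.92, SE 0.16, adjusted p = 1.88e-10). Without that array these differences were 3.05 and 3.18. In B cells Ltbr was 0.42 higher in all gland arrays than in spleen arrays (SE 0.16, adjusted p = 0.0839), beside the higher epithelium markers of the gland arrays, whose part in this was not tested.

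Tnfsf14, the gene for LIGHT, was a CD4 T cell transcript like Tnfsf11. It read 7.16, 6.59, 7.40 and 7.45 in gland and 6.17, 6.12 and 6.18 in spleen CD4 T cells, again without overlap. The difference was 0.99 (SE 0.27, adjusted p = 0.0138), and the 1.99-fold change fell just short of being called. Gland replicate 2 was the lowest of its group, and without it the difference was 1.18 and called (adjusted p = 0.00468). B cells read 3.77, 3.93, 4.20 and 3.87 in the gland and 4.29, 4.08 and 3.60 in the spleen (difference -0.04, adjusted p = 0.941). The change in CD4 T cells exceeded that in B cells by 1.04 (adjusted p = 0.113), or by 1.23 without that replicate (adjusted p = 0.0467). CD4 T cells were 9.25-fold above B cells in the gland (adjusted p = 4.23e-08) and 4.50-fold in the spleen (adjusted p = 2.65e-05). In the epithelial sort it read 5.05 in the array with leukocyte signal and 3.78 and 3.83 in the others, and the mean was 7.64-fold below gland CD4 T cells (adjusted p = 1.14e-07). The second probe set read 5.54, 5.26, 5.47 and 5.51 in gland and 5.26, 5.18 and 4.84 in spleen CD4 T cells, a difference of 0.35 (adjusted p = 0.0276). With that probe set CD4 T cells were 1.83-fold above B cells in the gland and 1.39-fold in the spleen. The epithelial sort was 1.75-fold below gland CD4 T cells. None of these was called.

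Tnfrsf14, the gene of HVEM, which LIGHT shares with BTLA, had its lowest mean in the epithelial sort, where Ltbr was highest. Tnfrsf14 was at 6.63 ± 0.18 in gland CD4 T cells (n = 4), 5.50 ± 0.22 in gland B cells (n = 4) and 4.36 ± 0.83 in the epithelial sort (n = 3). CD4 T cells of the gland exceeded its B cells 2.18-fold (adjusted p = 0.00229). Tnfrsf14 was 4.81-fold lower in the epithelial sort than in gland CD4 T cells (adjusted p = 1.86e-06).

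Counted over the 10 genes, 1 was called between gland and spleen in B cells (Tnfrsf1b, higher), where 4.18% of all genes were called, and 3 in CD4 T cells (Tnfsf11, Tnf and Tnfrsf1b, all higher), where 6.97% were called. Arrays of the groups did not overlap for 5 of the 10 genes in B cells, beside 30.5% of all genes, and for 4 in CD4 T cells, beside 34.6%. The median difference of the 10 genes in the B cell comparison was -0.11, beside 0.00 over all genes, and in the CD4 T cell comparison 0.14, beside -0.03. The change differed between the subsets for 2 genes, Tnfsf11 and Tnf (5.08% of all genes). Between CD4 T cells and B cells 5 genes were called in the gland, all higher in CD4 T cells (9.7% of all genes; Tnfsf11, Tnf, Tnfrsf1a, Tnfrsf1b and Tnfsf14), and 3 in the spleen (9.15%; Tnfsf11, Tnfrsf1a and Tnfsf14). These comparisons share arrays with one another, so their counts are not independent. The 10 genes were chosen with earlier results of these data known, so the counts give no test of enrichment.

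**Figure D3:**
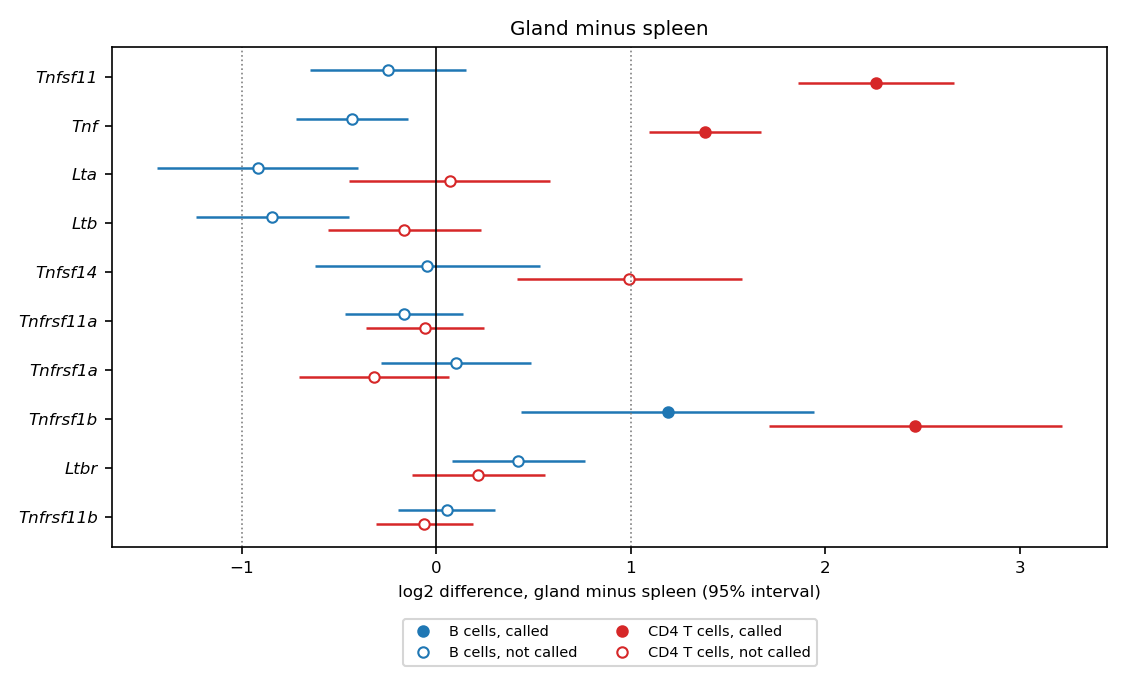
Gland minus spleen log2 difference (horizontal axis) of each of the 10 genes in B cells (blue, 4 and 3 arrays) and CD4 T cells (red, 4 and 3 arrays), with 95% intervals from limma; filled points were called and dotted lines mark a 2-fold change. The red points of Tnfsf11 and Tnf lie at 2.26 and 1.38, and their blue points at -0.25 and -0.43, and Lta and Ltb lie between the dotted lines in both subsets.

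In the epithelial sort 5 of the 10 genes were called against gland B cells, where 26.6% of all genes were, and 8 against gland CD4 T cells, where 25.3% were. Ltbr and Tnfrsf1a were higher in both comparisons, which share the epithelial arrays. Lta, Ltb and Tnfrsf1b were lower in both, and Tnfsf11, Tnf and Tnfsf14 were lower against CD4 T cells. The same genes were called in both comparisons when the array with leukocyte signal was left out. The median difference was -0.08 against gland B cells and -2.30 against gland CD4 T cells, beside -0.11 and -0.08 over all genes. RNA per cell and the share of cells of a kind cannot be told apart in such sorted bulk samples.

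**Figure D4:**
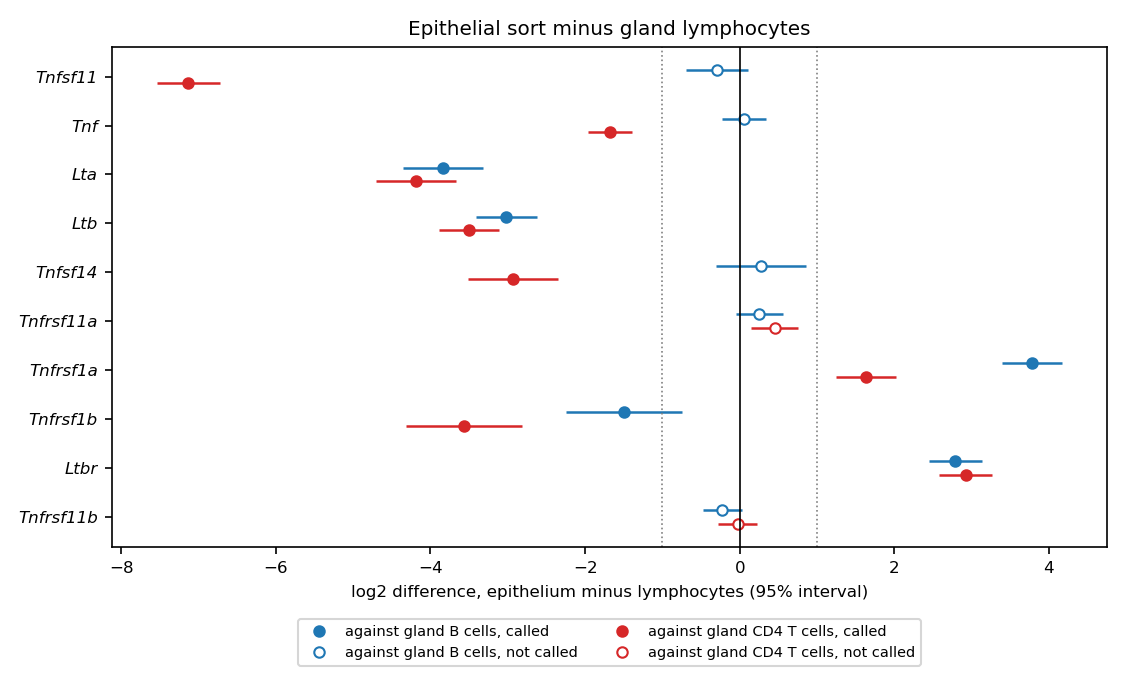
Log2 difference of the epithelial sort (3 arrays) minus gland lymphocytes (horizontal axis) for each of the 10 genes, against gland B cells (blue, 4 arrays) and gland CD4 T cells (red, 4 arrays), with 95% intervals from limma; filled points were called and dotted lines mark a 2-fold change. Ltbr and Tnfrsf1a lie to the right in both comparisons, and Lta, Ltb and Tnfrsf1b to the left.

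Of 11 measured genes of NF-kB kinases, subunits and their regulators 6 rose in gland CD4 T cells, where 6.97% of all genes were called. The median difference was 1.07, beside -0.03 over all genes. Rel, which encodes the subunit c-Rel, led (2.67, 6.38-fold, adjusted p = 1.37e-04). Next came the inhibitor gene Nfkbia (1.91, 3.77-fold, adjusted p = 6.58e-09), the nuclear cofactor gene Bcl3 (1.36, adjusted p = 5.17e-05) and Nfkb2 (1.32, 2.50-fold, adjusted p = 2.5e-05). The 6 are therefore not all kinases or subunits. In gland B cells 1 of the 11 rose (4.18% of all genes were called), Rel (1.95, 3.86-fold, adjusted p = 0.00332), with a median of 0.11. The test of the difference between the subsets was passed by 3 of the 11 (5.08% of all genes), among them Nfkbia (1.92, adjusted p = 9.16e-07) and Nfkb2 (1.31, adjusted p = 0.00161). Of 20 adaptors of death and survival signalling, Tnfaip3, which encodes the feedback inhibitor A20, was the single gene that rose in either subset, 10.3-fold in CD4 T cells (adjusted p = 6.94e-06) and 4.36-fold in B cells (adjusted p = 0.00109). That is 5.0% of the list in each subset, near the share of all genes. In the test of the difference between the subsets limma called 0 of the 20, and 3 had an unadjusted p under 0.05.

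Of 20 genes known as TNF and NF-kB targets 11 rose in gland CD4 T cells (6.97% of all genes were called) and 5 in gland B cells (4.18%), with medians of 1.07 and 0.19, and the change differed between the subsets for 7 (5.08%). In CD4 T cells the chemokine gene Cxcl10 rose 18.6-fold (4.59 ± 0.14 in spleen, 8.81 ± 0.21 in gland, adjusted p = 5.35e-09) and Csf1, which encodes a macrophage growth factor, 7.17-fold (adjusted p = 1e-07). In B cells Ier3, an early response gene, rose 4.08-fold, Cxcl10 2.46-fold and Csf1 2.26-fold (adjusted p = 6.29e-04, 0.00174 and 0.0014). Of 11 lymphotoxin target genes 5 rose in CD4 T cells and 1 in B cells (medians 0.48 and 0.14), and 3 differed between the subsets. These 3, Icam1, Tnfsf13b and Nfkb2, each also stand in another of the lists. Lists that share genes do not give independent counts, and the lists were chosen with earlier results of these data known. The B cell chemokine gene Cxcl13 rose 12.2-fold in CD4 T cells (adjusted p = 1.61e-06) and 6.30-fold in B cells (adjusted p = 9.33e-05), and Tnfsf13b, which encodes BAFF, rose 4.18-fold in CD4 T cells (adjusted p = 1.58e-04). Of 12 RANK target genes 3 rose and 1 fell in CD4 T cells and 2 rose and 1 fell in B cells (medians 0.28 and 0.19), and 2 differed between the subsets. The chemokine gene Ccl9 (14.3-fold and 7.62-fold) and Marcksl1 (6.79-fold and 3.04-fold) rose in both subsets. The transcription factor gene Nfatc1 rose in CD4 T cells (2.13-fold), and Acp5, which encodes an acid phosphatase, fell in both (-1.06 and -1.07). The RANK gene Tnfrsf11a was below the median of all values in every array, and a part of RANK in these changes was not tested.

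Other genes moved in the same gland samples. Of 16 immediate early genes, which cells induce within minutes of many stimuli, 15 rose in gland B cells (4.18% of all genes were called). In gland CD4 T cells 11 rose (6.97% of all genes). Their medians were 2.69 and 2.23, led by Fosb at 6.83 and 6.27. Ccl9 and Ier3, counted above, had their highest levels in the epithelial sort, at 11.22 ± 0.22 and 10.96 ± 0.14, whose markers gland lymphocytes also carried. The plasma cell list (Xbp1, Prdm1 and Jchain, 3 of 5 genes measured) was at 8.37 to 8.81 in gland against 5.90 to 6.80 in spleen CD4 T cells, with 3 of 3 called higher (median 2.33) and 3 of 3 called for the difference between the subsets; in gland B cells it was at 7.52 to 7.88 and in spleen B cells at 8.30 to 8.63. The B cell list was at 4.65 to 5.21 in gland and 4.49 to 4.95 in spleen CD4 T cells. Gland CD4 T cell arrays also had more of the myeloid list than spleen CD4 T cell arrays. The part of any of these in the counts above was not tested. Among 10 other ligands of the TNF superfamily 4 rose in gland CD4 T cells (Tnfsf13b, Tnfsf9, Tnfsf8 and Tnfsf10, 4.18-fold to 2.15-fold; 6.97% of all genes were called). In gland B cells limma called 0 of the 10, and 2 had an unadjusted p under 0.05. The change differed between the subsets for 3 (5.08% of all genes). Among 22 other receptors of the family 4 rose in CD4 T cells (6.97% of all genes were called). They were led by Tnfrsf4, which encodes OX40 (5.43-fold), and Tnfrsf9, which encodes CD137 (3.93-fold). In gland B cells (4.18% of all genes) the death receptor gene Fas rose (2.05-fold) and Tnfrsf17 and Tnfrsf19 fell (-1.21 and -1.04). Between the subsets 7 of the 22 differed (5.08% of all genes).

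**Figure D5:**
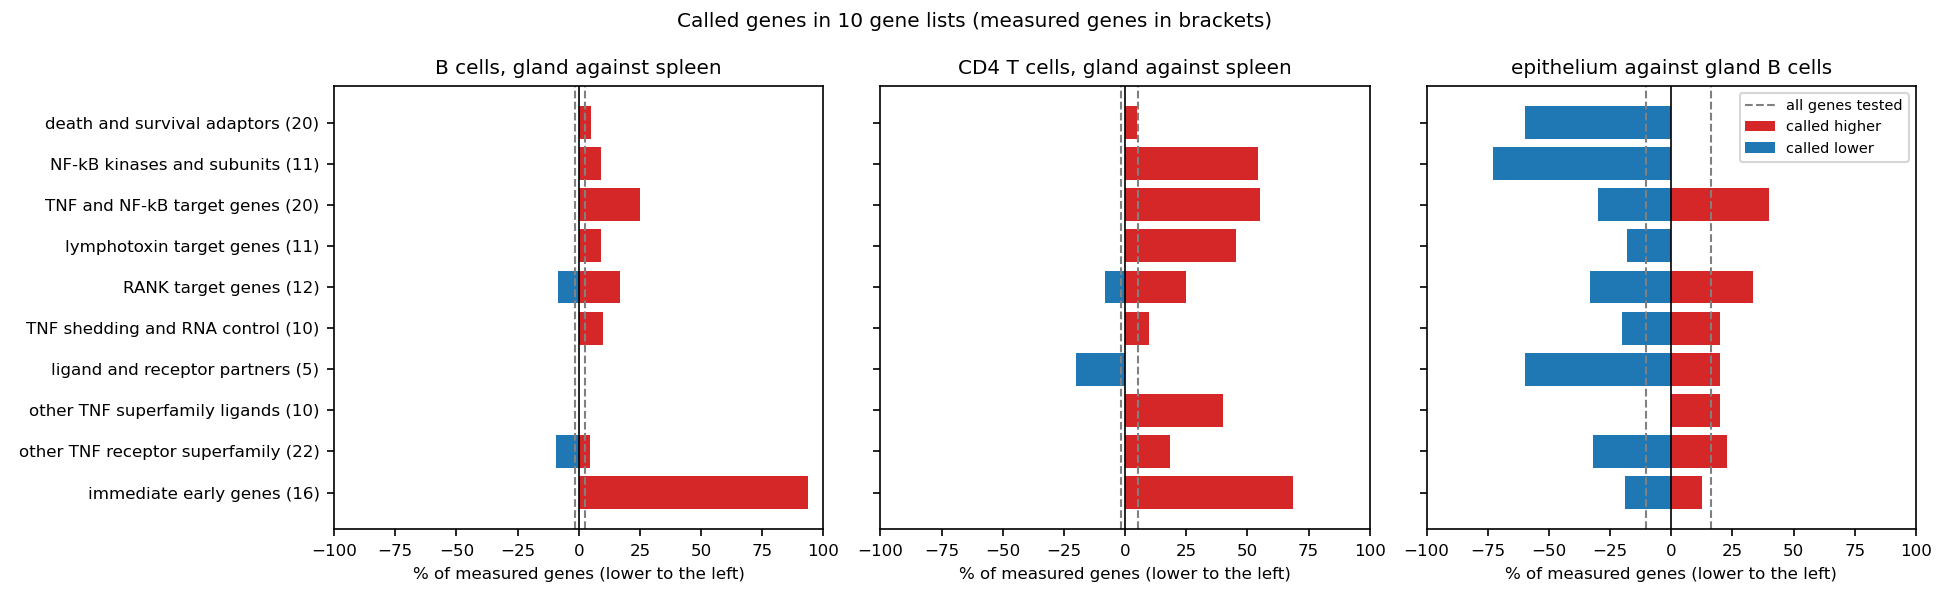
Share of the measured genes of each of 10 lists that was called higher (red, to the right) or lower (blue, to the left), in % on the horizontal axis, for B cells and CD4 T cells of gland against spleen and for the epithelial sort against gland B cells; list sizes are in brackets and dashed lines give the share over all genes in each direction. The list of NF-kB kinases and subunits, which also holds regulators such as Nfkbia and Bcl3, has 6 of 11 higher in CD4 T cells. It has 8 of 11 lower in the epithelial sort, and immediate early genes have 15 of 16 higher in B cells.

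In the epithelial sort the lists are read against the 26.6% of all genes called against gland B cells and the 25.3% called against gland CD4 T cells. Of 20 adaptors 12 were lower than in gland B cells and 11 lower than in gland CD4 T cells (medians -1.09 and -1.04). Traf1 was 8.81-fold and 24.0-fold lower, with a wide spread in the epithelial sort (5.57 ± 1.38). Of 11 NF-kB kinases, subunits and regulators 8 and 7 were lower (medians -1.27 and -1.28), with Rel 21.9-fold below gland B cells (adjusted p = 8.16e-08). Of 20 TNF and NF-kB targets 8 were higher and 6 lower than in gland B cells, and 6 higher and 8 lower than in gland CD4 T cells. Those higher than in gland B cells included Ier3 (48.3-fold) and the neutrophil chemokine genes Cxcl1 (45.6-fold, adjusted p = 1.39e-12) and Cxcl2 (44.7-fold, adjusted p = 1.93e-12). Of 11 lymphotoxin targets 2 and 4 were lower (18.2% and 36.4% called), near the share of all genes. Of 12 RANK targets 4 were higher and 4 lower than in gland B cells, and 3 higher and 2 lower than in gland CD4 T cells. Against gland B cells they included Ccl9 (11.8-fold higher) and the transcription factor gene Spib (-6.76, lower). Spib was high in gland B cells, at 11.025, and low in gland CD4 T cells, at 4.84, as in the epithelial sort, at 4.27.

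Of 10 measured genes of TNF shedding and RNA control 2 were higher and 2 lower in the epithelial sort than in gland B cells (26.6% of all genes were called), and 2 higher and 1 lower than in gland CD4 T cells (25.3%), so 3 of 10 there is near the share of all genes. Timp3, which encodes an inhibitor of the TNF-cleaving protease, was at 8.64 ± 0.37 (n = 3) against 3.99 ± 0.15 (n = 4), 25.1-fold higher (adjusted p = 3.95e-13). Adam17, the gene of that protease, was 2.35-fold lower than in gland B cells (adjusted p = 1.55e-09) and, with group means of 8.82 in the epithelial sort and 9.82 in gland CD4 T cells, was just short of the 2-fold limit there. Rhbdf1, which encodes a rhomboid-like partner of that protease, was 2.52-fold higher than in gland B cells (adjusted p = 1.15e-05) and 12.1-fold higher than in gland CD4 T cells (adjusted p = 9.41e-11). Zc3h12a, which encodes an RNase that degrades cytokine transcripts, was 5.24-fold lower than in gland B cells (adjusted p = 1.46e-09). Between gland and spleen Zc3h12a was the single gene of the 10 that changed, rising 2.92-fold in CD4 T cells (6.97% of all genes were called) and 2.02-fold in B cells (4.18%).

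The genes whose pattern over the 17 arrays was most like that of each of the 10 were sought among genes with a group mean above the median of all values and group means that spanned at least 2 on the log2 scale (3074 or 3075 candidates). Pearson's r describes likeness here, with arrays of a group sharing most of it. Tnfsf11 was most like Tnfsf8 (r = 0.994), Foxp3 (0.993) and Ubash3a (0.991). Tnf was most like Myo3b (0.958), Cass4 (0.954) and Vat1l (0.946). Lta was most like Ltb (0.986), Pdlim2 (0.986) and Fermt3 (0.985), and Ltb like Gimap1 (0.990), Ptprcap (0.988) and Nipsnap1 (0.987). Tnfsf14 was most like Emb (0.982), Zap70 (0.979) and Icos (0.977). Among the receptors, Ltbr was most like Slc6a9, Sult5a1 and Sdc2 (each 0.992), Tnfrsf1a like Pkp4 (0.987), Acpp (0.986) and Lrrc1 (0.983), and Tnfrsf1b like Rbpj (0.956), Ifngr1 (0.951) and Agfg1 (0.934). The dim genes had no close partner, with the highest r at 0.732 for Tnfrsf11a (Rapgef3) and 0.618 for Tnfrsf11b (Dnhd1).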

How the data were processed

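Values were taken from the deposited table, which gives log2 expression for 45141 probe sets on 17 single-colour arrays; per the submitters' processing notes the authors used Partek and RMA, with versions and settings not given in the sources used here. Per the labels, RNA was amplified and labelled with biotin, and RIN scores were over 8 except in 3 samples that could not be matched to arrays. Of the probe sets 28898 name exactly 1 gene in the platform's annotation (28689 matched by identifier to GRCm38.p6, used for names); for each of 17097 genes the probe set of highest mean was kept, with no filter on dim genes.

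limma 3.58.1 (R 4.3.3) was used to fit the 5 group means in 1 linear model (lmFit and eBayes; 12 residual and 3.17 prior degrees of freedom), with Benjamini-Hochberg adjustment over all genes. Errors beside means are standard deviations between arrays; the number of arrays limits the precision, and the median standard error of a gland minus spleen difference was 0.121. The 10 genes, the gene lists and the markers were chosen with earlier results of these data known. By the rule for named genes, all 10 are described, and the 3 genes of most alike pattern are named for each. Called genes named from a list are drawn from the 4 that changed most in a comparison, and not all of those are named. The pipeline was tested on simulated data. Alternatives were the fold minimum, the filter, the probe sets, centring, quantile normalization, eBayes settings, array weights, the replicate number as a block, the groups in the fit and each array left out. Figures were drawn with matplotlib 3.10.9.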

Additional observations from a re-analysis of the deposited data

Results flagged for a closer look

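Among 20 groups of 4 arrays tested for a far array, 2 were found, and chance gives about 1 in 20. Tnfrsf1b in gland B cells had its highest array, replicate 3, at 8.50, with a gap to the next array of 0.872 of the group's whole range. Ltbr in gland CD4 T cells had its lowest array, replicate 4, at 4.36, where the other 3 read 4.55 each (gap 0.951 of the range). The change from spleen to gland differed between CD4 T cells and B cells for Tnfsf11, by 2.51, and for Tnf, by 1.82, each by the interaction test of limma's fit (adjusted p = 1.00e-05 and 9.44e-06). In both cases all 4 gland arrays lay above all 3 spleen arrays in CD4 T cells.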

How the results depend on the processing

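Over 28 settings and 1316 values of single genes, 1288 stayed on the same side of the threshold, 8 lost a call and 20 gained one; no called value changed sign, while some differences near 0 did. Tnfsf11 and Tnf stayed called in gland CD4 T cells under every setting run, at 1.52 to 2.49 and 1.23 to 1.45. The B cell count of gland against spleen, 1 as reported, was 4 with no fold minimum and 0 when probe sets of a gene were averaged, with array weights, with only the groups compared, or, in a setting chosen after seeing the data, without both gland B cell replicate 3 and epithelial replicate 1; leaving out single arrays gave 0 to 2. The difference of the changes, 2 genes as reported, was 4 with array weights and 4 without those 2 arrays, when Tnfrsf1b and Tnfsf14 were added. The cause was not tested. Tnfsf14 in gland CD4 T cells was called at 1.12 with array weights and at 1.002 and 1.004 without spleen replicate 1 or 3. Tnfrsf1b in the epithelial sort against gland B cells was -0.99 and not called when its probe sets were averaged. The filter on dim genes left 11506 genes and 8 of the 10. Deviations from group means showed no sign of pairing by replicate number (31 pairs, r from -0.397 to 0.215, 2 over 0.1). With so few arrays in a group this cannot show whether arrays of 1 number shared mice. With the replicate block the counts were 1, 3, 2, 5, 3, 5 and 8, as without it. The dim signals of Tnfrsf11a and Tnfrsf11b limit what their differences can show.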
